A study of Mus musculus with 11 samples.

Results

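The early neuronal differentiation genes described here are 10 genes, *Dcx*, *Tubb3*, *Map2*, *Stmn2*, *Elavl2*, *Elavl3*, *Elavl4*, *Rbfox3*, *Gap43* and *Mapt*. They were chosen by symbol as a list of genes of newborn neurons, and all 10 were found among the 53801 genes counted. They were followed in 11 RNA-seq libraries of NPC cultures, which are neural stem cells taken from the brains of E13.5 mouse embryos (strain C57BL/6 mixed with 129SV) and grown with EGF and bFGF, as neurospheres until 4-OHT was added. All embryos carried the genotype *Smg6* Flox/Flox, in which part of the *Smg6* gene can be cut out by Cre recombinase. The Ctr group held RosaCreER tg/+ cells from 3 embryos without treatment. The Ctr + 4-OHT group held RosaCreER +/+ cells from 4 embryos, which cannot delete *Smg6*, with 1 µM 4-OHT (4-hydroxytamoxifen, the ligand that activates CreER) in the medium for 3 days. The *Smg6*-iKO group held RosaCreER tg/+ cells from 4 embryos with the same 4-OHT treatment. By the labels, RNA was analysed on day 6 counted from the first addition of 4-OHT. CreER in this line is expressed from the Rosa26 locus, which is active in nearly all cell types, so the deletion was not restricted to progenitors or to neurons.

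SMG6 is the endonuclease of nonsense-mediated mRNA decay (NMD), the pathway that cuts and clears transcripts whose translation ends too early. When a neural progenitor leaves the cell cycle, it turns down progenitor genes and builds a neuronal cytoskeleton. The 10 genes encode parts of that programme. *Dcx* (doublecortin), *Tubb3* (the neuronal tubulin known as TUJ1), *Map2*, *Mapt* (tau) and *Stmn2* encode tubulin or proteins that bind it, and *Gap43* encodes a protein of the growth cone. *Elavl2*, *Elavl3*, *Elavl4* (the neuronal Hu proteins) and *Rbfox3* (NeuN) encode RNA-binding proteins that govern splicing and stability of neuronal mRNAs. *Dcx* and *Tubb3* mark young neurons, whereas NeuN marks neurons that have matured further.

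The stretch upstream of the start site is shown for 4 of the genes, because the 10 genes varied together from library to library and these 4 include those that varied most and least between the Ctr + 4-OHT libraries. The RefSeq promoter table used here (GRCm38.p6) was matched to 7 of the 10 genes, *Dcx*, *Tubb3*, *Map2*, *Elavl2*, *Elavl3*, *Elavl4* and *Rbfox3*, and the bases shown are those of the 250 before the start site that lie outside any annotated exon. Within that group *Tubb3* and *Dcx* had the widest spread of expression (SD of log2 CPM) and *Map2* the narrowest, and *Elavl3* held the most kinds of motif. Capitals mark matches on either strand to the GC box GGGCGG, the CCAAT box CCAAT, the TATA box TATAAA or the E-box CAGCTG.
Dcx (chrX:143933312-143933469, - strand, 158 bases): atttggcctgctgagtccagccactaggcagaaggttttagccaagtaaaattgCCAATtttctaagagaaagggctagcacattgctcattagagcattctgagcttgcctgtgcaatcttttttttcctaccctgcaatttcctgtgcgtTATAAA
Tubb3 (chr8:123411303-123411423, + strand, 121 bases): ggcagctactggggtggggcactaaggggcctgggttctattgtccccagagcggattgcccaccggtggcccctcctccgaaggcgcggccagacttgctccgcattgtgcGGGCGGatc
Map2 (chr1:66175079-66175272, + strand, 194 bases): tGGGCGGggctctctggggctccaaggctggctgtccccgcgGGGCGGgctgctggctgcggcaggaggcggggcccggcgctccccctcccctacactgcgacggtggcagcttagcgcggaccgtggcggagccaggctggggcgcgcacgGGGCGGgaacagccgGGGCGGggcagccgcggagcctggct
Elavl3 (chr9:22052024-22052273, - strand, 250 bases): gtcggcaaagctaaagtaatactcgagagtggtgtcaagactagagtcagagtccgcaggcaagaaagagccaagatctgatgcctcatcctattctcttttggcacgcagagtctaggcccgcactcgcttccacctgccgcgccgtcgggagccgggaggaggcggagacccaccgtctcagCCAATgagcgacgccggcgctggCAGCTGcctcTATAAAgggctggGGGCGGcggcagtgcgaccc
The *Map2* window was 79.4% G or C and held 4 copies of GGGCGG, a motif present in 23.6% of 27025 genes over windows of the same length. The *Dcx* window was 42.4% G or C and held a CCAAT box (21.5% of genes) and TATAAA (7.87% of genes). The *Tubb3* window held 1 copy of GGGCGG (12.6% of genes). The *Elavl3* window held CCAAT (34.5% of genes), CAGCTG (12.7%), TATAAA (13.0%) and GGGCGG (33.0%) near its 3′ end, next to the start site. The *Rbfox3* window held 1 CCAAT box, and none of the searched motifs was found in the windows of *Elavl2* and *Elavl4*. The windows of *Rbfox3* (118761042 to 118761291) and *Elavl2* (91400086 to 91400234) precede a RefSeq start that lies inside the Ensembl gene bounds given below. The proneural E-box CAGATG and the RE1 half-site CAGCACC were searched on both strands as well and were in none of the 7 windows. These matches describe letters in a window and nothing more.

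The counts of each gene are summed over its exons on its own strand, with positions on GRCm38 as in the Ensembl annotation. *Dcx* (ENSMUSG00000031285) lies on chromosome X from 143855842 to 143933311 and *Tubb3* (ENSMUSG00000062380) lies on chromosome 8 from 123411424 to 123422015. *Map2* (ENSMUSG00000015222) lies on chromosome 1 from 66175273 to 66442583 and *Stmn2* (ENSMUSG00000027500) lies on chromosome 3 from 8509360 to 8561606. Among the Hu genes, *Elavl2* (ENSMUSG00000008489) lies on chromosome 4 from 91250763 to 91400785, *Elavl3* (ENSMUSG00000003410) on chromosome 9 from 22015005 to 22052023 and *Elavl4* (ENSMUSG00000028546) on chromosome 4 from 110203722 to 110351909. *Rbfox3* (ENSMUSG00000025576) lies on chromosome 11 from 118489762 to 118911597 and *Mapt* (ENSMUSG00000018411) lies on the same chromosome from 104231390 to 104332090. *Gap43* (ENSMUSG00000047261) lies on chromosome 16 from 42248442 to 42340651. Exonic lengths run from 1523 bases (*Gap43*) to 16449 bases (*Map2*), so levels of different genes are compared only per length. *Elavl3* shares 3.7% of its exonic bases on the same strand with *Gm49318*, and reads there would be assigned to neither gene. The other 9 genes share none on their own strand.

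Between 26418249 and 33756875 reads were counted on genes per library, and the 10 genes held between 365 reads (*Rbfox3* in Ctr + 4-OHT embryo SMH_129) and 32061 reads (*Map2* in *Smg6*-iKO embryo SMH_127). Expression is given as CPM (counts scaled to library size after TMM normalization over all libraries) with SD over embryos. *Smg6* itself was counted over the whole gene, including exons outside the floxed part, and gave 66.0 ± 4.57 CPM in *Smg6*-iKO (n = 4), 69.3 ± 3.22 in Ctr + 4-OHT (n = 4) and 74.4 ± 4.96 in Ctr (n = 3). These totals do not show how much of the floxed part was lost. Libraries are named by group and by the embryo code of the labels. Embryos SMH_128, SMH_132 and SMH_133 each gave both a Ctr and a *Smg6*-iKO library, and no other embryo gave more than 1. The labelled cell type was present: 10 of 10 progenitor markers were detected in every group, with summed levels of 5273.5 to 6879.7 CPM, against 2272.6 to 3777.2 CPM summed over the 10 neuronal genes. Of 7 microglia and blood markers, 1 reached 1 CPM, and *Hbb-bs* (adult beta-globin) was at 0 in all Ctr + 4-OHT and *Smg6*-iKO libraries.

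All 10 genes were expressed in every library, and their order by level was the same in all groups. Compared per length (CPM per kb of exons), *Tubb3* was the most abundant with a mean of 288.97 over all libraries, which put it at place 69 of 18123 genes. It was followed by *Gap43* (118.52), *Mapt* (68.5), *Map2* (57.0), *Stmn2* (37.8), *Elavl3* (27.1), *Dcx* (22.6), *Elavl4* (13.0) and *Elavl2* (7.23). The nuclear antigen gene *Rbfox3* was the least abundant, at 3.24 CPM per kb and place 9996. Cytoskeletal and growth cone genes thus took the upper places and the RNA-binding genes most of the lower ones. In this order, the ranges of *Mapt* and *Map2* overlapped in Ctr and in Ctr + 4-OHT, as did those of *Stmn2* and *Elavl3*. *Elavl3* and *Dcx* overlapped in Ctr + 4-OHT and in *Smg6*-iKO, and *Dcx* and *Elavl4* overlapped in Ctr + 4-OHT only. All other neighbours in the order were separated in every group.

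**Figure D1:**
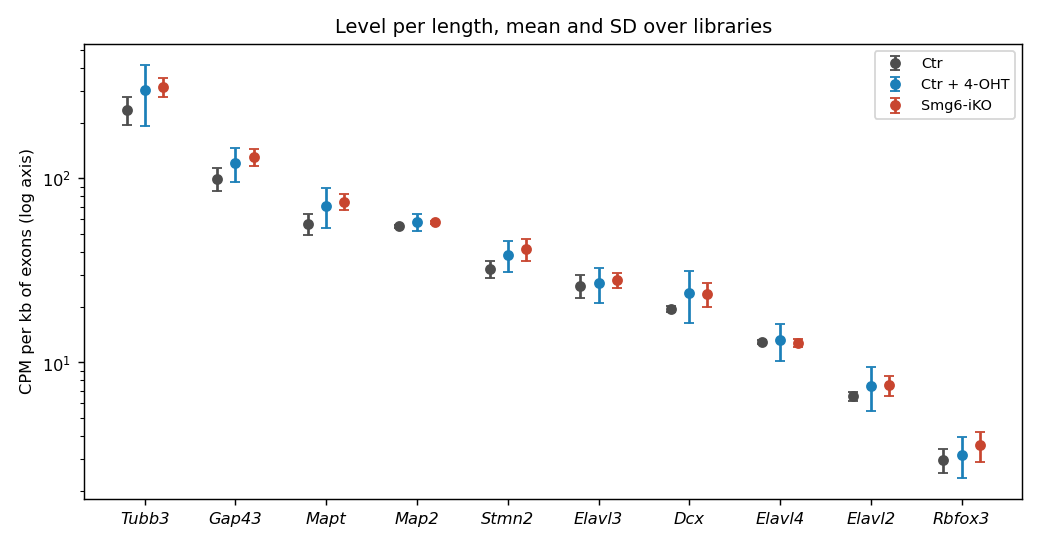
Level of each gene per length (CPM per kb of exons, log axis) as the mean of each group with the SD over its libraries (3 Ctr, 4 Ctr + 4-OHT, 4 *Smg6*-iKO). From *Tubb3* to *Rbfox3* the genes hold the same order of means in all groups.

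The comparison of *Smg6*-iKO with Ctr + 4-OHT sets cells that can delete *Smg6* beside cells that cannot, where all received the ligand. The RosaCreER transgene differs together with the deletion between these groups, so the 2 cannot be told apart here. None of the 10 neuronal genes passed the threshold (adjusted p under 0.05 from edgeR's quasi-likelihood test), while 1.17% of the 17558 genes tested did. At an unadjusted p under 0.05 there were also 0 of the 10, where 16.7% of all genes were, and DESeq2 called 0, where it called 6.16% of the genes to which it gave an adjusted p. Log2 fold changes ran from -0.04 (*Elavl4*) to 0.18 (*Rbfox3*), with a median of 0.06 over the 10 genes and 0.01 over all genes tested. The CPM of the groups overlapped for all 10 genes, whereas *Smg6*-iKO lay wholly above the treated controls for 5.03% and wholly below for 5.99% of all genes tested.

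*Dcx* shows the pattern. It had 360, 256, 281 and 295 CPM in *Smg6*-iKO embryos SMH_127, SMH_128, SMH_132 and SMH_133, and 388, 252, 193 and 379 CPM in Ctr + 4-OHT embryos SMH_125, SMH_126, SMH_129 and SMH_131. The *Smg6*-iKO libraries all lay inside the range of the Ctr + 4-OHT libraries, of which SMH_125 and SMH_131 were high and SMH_129 was low. The log2 fold change was -0.01 with a standard error of 0.20 (edgeR, adjusted p = 0.985). *Tubb3* had 653, 550, 512 and 632 CPM in *Smg6*-iKO and 797, 481, 325 and 669 CPM in Ctr + 4-OHT, in the same order of embryos. Again the treated controls enclosed all *Smg6*-iKO libraries, and the log2 fold change was 0.06 with a standard error of 0.22 (edgeR, adjusted p = 0.924).

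*Map2* is the gene measured most tightly, with a standard error of 0.08. Its CPM was 935, 962, 935 and 960 in *Smg6*-iKO against 1064, 879, 858 and 1007 in Ctr + 4-OHT, a log2 fold change of 0.01 (edgeR, adjusted p = 0.982). Here too every *Smg6*-iKO library lay within the range of the treated controls. Over the remaining 7 genes the standard errors were 0.13 to 0.19, so that the data do not separate no change from changes of that size. Of the 10 genes, 8 had a positive log2 fold change, but leaving out Ctr + 4-OHT embryo SMH_129 alone turned *Tubb3*, *Map2*, *Stmn2*, *Elavl2*, *Elavl3*, *Gap43* and *Mapt* negative, with values from -0.14 (*Tubb3*) to -0.0072 (*Gap43*). No embryo gave libraries to both groups, so no comparison within embryos was possible here.

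**Figure D2:**
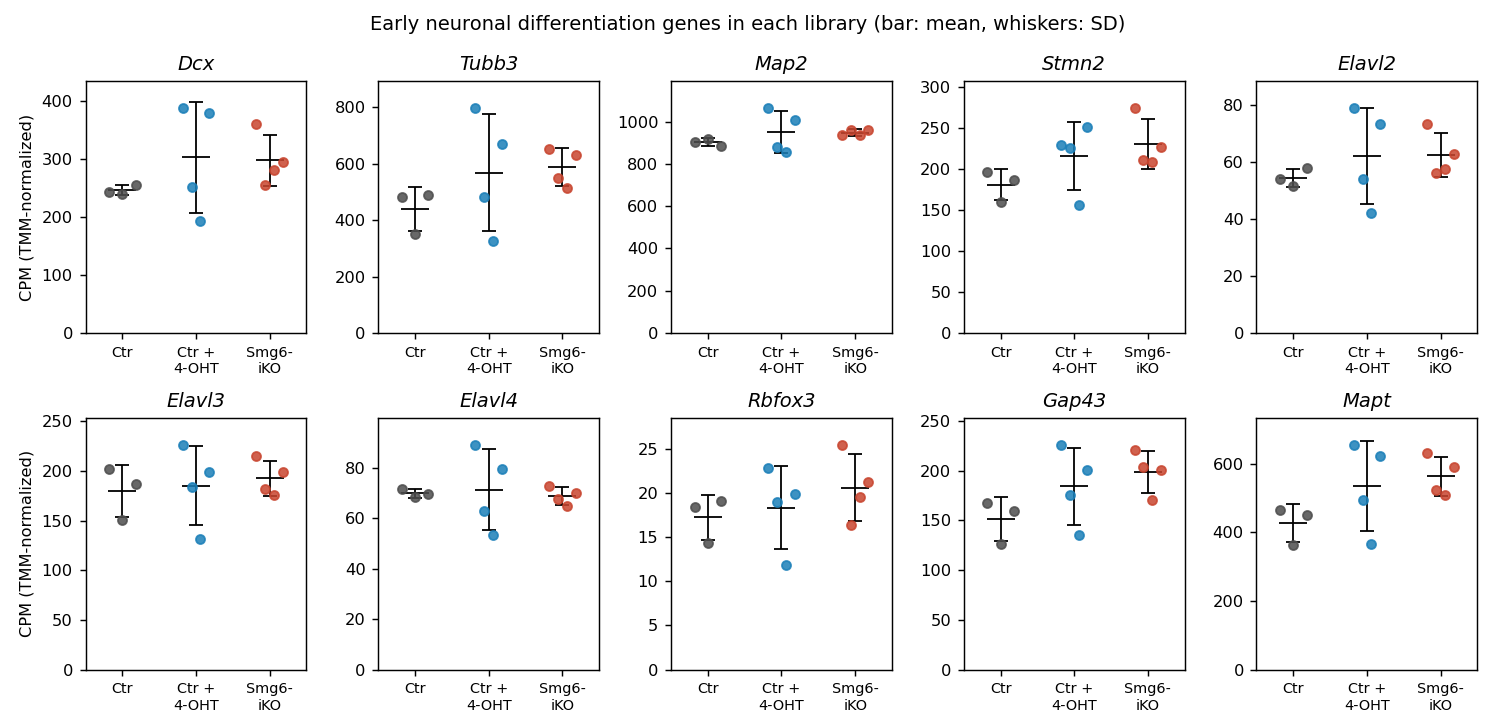
CPM of the 10 genes in each library (points), with the mean (bar) and SD (whiskers) of Ctr (n = 3), Ctr + 4-OHT (n = 4) and *Smg6*-iKO (n = 4), each panel starting at 0. The Ctr + 4-OHT points spread widest, from 193 to 388 CPM for *Dcx*, and enclose or overlap the *Smg6*-iKO points in every panel.

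Compared with untreated Ctr, *Smg6*-iKO cells held more RNA of *Mapt*, the tau gene, and of *Gap43*, the growth cone gene. Both passed the threshold and were 1.32 times higher. These 2 of 10 genes stand against 9.25% of the 17974 genes tested (4.27% higher, 4.98% lower). Treatment with 4-OHT and deletion of *Smg6* differ together between these groups, so the 2 cannot be told apart here. In bulk RNA, more cells of a type and more RNA per cell cannot be told apart either.

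*Mapt* had 632, 525, 510 and 589 CPM in *Smg6*-iKO embryos SMH_127, SMH_128, SMH_132 and SMH_133 and 465, 363 and 452 CPM in Ctr embryos SMH_128, SMH_132 and SMH_133. Every *Smg6*-iKO library lay above every Ctr library, and the lowest was Ctr embryo SMH_132. The log2 fold change was 0.40 with a standard error of 0.10 (edgeR, adjusted p = 0.0317). *Gap43* had 220, 204, 170 and 201 CPM in *Smg6*-iKO and 167, 126.4 and 160 CPM in Ctr, a log2 fold change of 0.40 with a standard error of 0.11 (edgeR, adjusted p = 0.0428). The groups did not overlap, although *Smg6*-iKO embryo SMH_132 (170 CPM) and Ctr embryo SMH_128 (167 CPM) nearly met. Both calls depended on single libraries and on the spread used. With all 11 libraries in one fit, which brings in the spread of Ctr + 4-OHT, the edgeR adjusted p was 0.185 for *Mapt* and 0.156 for *Gap43*. *Gap43* had an edgeR adjusted p of 0.0633 without Ctr SMH_128, 0.147 without Ctr SMH_132, 0.0799 without Ctr SMH_133, 0.0948 without *Smg6*-iKO SMH_127, 0.0531 without *Smg6*-iKO SMH_128 and 0.108 without *Smg6*-iKO SMH_133. *Mapt* had an adjusted p of 0.0589, 0.120 and 0.0612 without Ctr SMH_128, SMH_132 and SMH_133, and of 0.0719 and 0.0952 without *Smg6*-iKO SMH_127 and SMH_133.

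*Tubb3* and *Stmn2* came close to the threshold. *Tubb3* had 653, 550, 512 and 632 CPM in *Smg6*-iKO against 481, 351 and 487 CPM in Ctr, with a log2 fold change of 0.42 and a standard error of 0.12 (edgeR, adjusted p = 0.0534). *Stmn2*, which encodes a regulator of microtubule dynamics in growing axons, had 274, 211, 209 and 227 CPM against 196, 160 and 187 CPM, with a log2 fold change of 0.35 and a standard error of 0.10 (edgeR, adjusted p = 0.0556). For both genes the groups did not overlap, and Ctr embryo SMH_132 was the lowest library. *Dcx* had 360, 256, 281 and 295 CPM against 243, 240 and 256 CPM, with a log2 fold change of 0.28 and a standard error of 0.10 (edgeR, adjusted p = 0.103). The *Dcx* groups were separated by less than 1 CPM, between *Smg6*-iKO embryo SMH_128 and Ctr embryo SMH_133. Without *Smg6*-iKO embryo SMH_128 all 3 genes passed, with an edgeR adjusted p of 0.0481 for *Tubb3*, 0.0378 for *Stmn2* and 0.0319 for *Dcx*.

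*Map2* was separated too, at 935 to 962 CPM in *Smg6*-iKO and 885 to 920 CPM in Ctr, but the log2 fold change was only 0.07 (edgeR, adjusted p = 0.392). In all, 6 of 10 genes had *Smg6*-iKO libraries wholly above Ctr, where 11.4% of all genes did. The RNA-binding genes did not pass. *Elavl2* ranged from 56.1 to 73.1 CPM in *Smg6*-iKO and from 51.5 to 57.7 CPM in Ctr, with a log2 fold change of 0.20 (edgeR, adjusted p = 0.192). *Rbfox3* ranged from 16.3 to 25.4 CPM and from 14.3 to 19.0 CPM, with a log2 fold change of 0.26 (edgeR, adjusted p = 0.271). Without *Smg6*-iKO SMH_127 the values fell to 0.11 for *Elavl2* and 0.15 for *Rbfox3*, and to 0.17 for *Dcx*, and without Ctr SMH_132 that of *Rbfox3* was 0.13. *Elavl3* had a log2 fold change of 0.10 (edgeR, adjusted p = 0.565), which turned to -0.02 without Ctr SMH_132. The groups of *Elavl2*, *Rbfox3* and *Elavl3* overlapped.

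*Elavl4* was the gene nearest to no difference. It had 72.9, 67.5, 64.8 and 70.1 CPM in *Smg6*-iKO and 71.7, 68.2 and 69.4 CPM in Ctr, with a log2 fold change of -0.02 and a standard error of 0.06 (edgeR, adjusted p = 0.868). The Ctr libraries lay within the *Smg6*-iKO range. Over the 10 genes the median log2 fold change was 0.27, against 0.01 over all genes tested.

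Embryos SMH_128, SMH_132 and SMH_133 allow *Smg6*-iKO and Ctr to be compared in cells of 1 animal. Within embryos, *Dcx*, *Tubb3*, *Map2*, *Stmn2*, *Elavl2*, *Gap43* and *Mapt* were higher in *Smg6*-iKO in 3 of 3, that is 7 of 10 genes, where 25.8% of all genes were. *Gap43* was at 1.22, 1.34 and 1.26 times its Ctr level in embryos SMH_128, SMH_132 and SMH_133. Its SD of the log2 ratio (0.073) was the smallest among *Tubb3*, *Gap43*, *Mapt*, *Stmn2* and *Dcx*. *Map2* (0.048) and *Elavl2* (0.052) were more even. *Tubb3* was 1.14, 1.46 and 1.30 times higher and *Mapt* 1.13, 1.41 and 1.30 times higher. *Stmn2* was 1.08, 1.31 and 1.22 times higher. For the last 3 genes embryo SMH_132 gave the largest ratio and embryo SMH_128 the smallest.

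With the embryo as a block in edgeR, 5 of the 10 genes passed and were higher in *Smg6*-iKO. They were *Tubb3* (log2 fold change 0.37, adjusted p = 0.000222), *Gap43* (0.35, adjusted p = 8.51e-05), *Mapt* (0.35, adjusted p = 0.000292), *Stmn2* (0.26, adjusted p = 0.00272) and *Dcx* (0.17, adjusted p = 0.0220). In this fit 21.4% of all genes passed, 10.3% higher and 11.2% lower. *Smg6*-iKO embryo SMH_127 has no Ctr partner and adds nothing to these values. With both libraries of 1 embryo left out, 8 of the 10 genes passed without embryo SMH_128 (28.1% of all genes), 4 without embryo SMH_132 (14.6% of all genes) and 4 without embryo SMH_133 (9.62% of all genes), and *Tubb3*, *Stmn2*, *Gap43* and *Mapt* passed each time. Each of these fits rests on fewer pairs, for example on embryos SMH_132 and SMH_133 alone when SMH_128 was left out. The other 5 genes did not pass in the full block fit, with log2 fold changes of 0.15 for *Rbfox3*, 0.11 for *Elavl2*, 0.08 for *Map2*, 0.05 for *Elavl3* and -0.05 for *Elavl4*. In embryo SMH_128, *Elavl3* (-0.15), *Elavl4* (-0.09) and *Rbfox3* (-0.17) were lower in *Smg6*-iKO on the log2 scale.

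**Figure D3:**
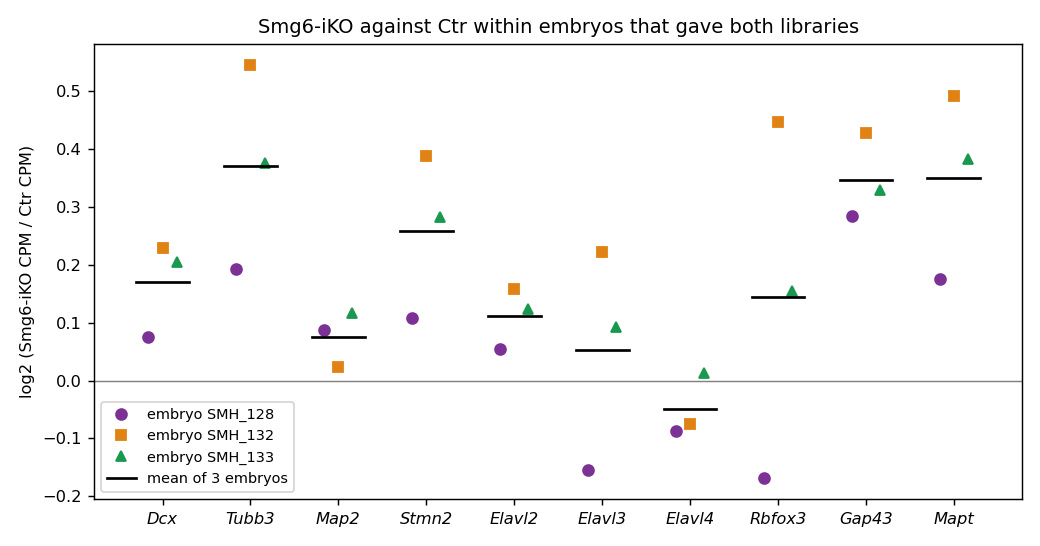
Log2 ratio of *Smg6*-iKO to Ctr CPM within each of the 3 embryos that gave both libraries (points), with their mean (line), for the 10 genes. *Dcx*, *Tubb3*, *Map2*, *Stmn2*, *Elavl2*, *Gap43* and *Mapt* lie above 0 in all 3 embryos, while *Elavl4* lies between -0.09 and 0.01.

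The comparison of Ctr + 4-OHT with Ctr sets treated cells that cannot delete *Smg6* beside untreated ones. Ctr cells carried RosaCreER and Ctr + 4-OHT cells did not, so treatment and transgene cannot be told apart here. None of the 10 genes passed in edgeR, and 0.221% of 17665 genes did. An unadjusted p under 0.05 was reached by 0 of the 10 and by 8.28% of all genes, and DESeq2 called 0 of the 10 and 1.03% of all genes. The groups overlapped for all 10 genes (Ctr + 4-OHT lay wholly above Ctr for 3.80% and wholly below for 4.91% of all genes), while the log2 fold changes were all positive, from 0.03 (*Elavl4*) to 0.37 (*Tubb3*). Their median was 0.22, against 0.0045 over all genes tested.

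Set side by side, the values against Ctr were 0.42 in *Smg6*-iKO and 0.37 in Ctr + 4-OHT for *Tubb3*. For *Mapt* they were 0.40 and 0.33, for *Gap43* 0.40 and 0.29, and for *Stmn2* 0.35 and 0.25. *Dcx* had 0.28 and 0.30, and *Elavl4* had -0.02 and 0.03. *Rbfox3* had 0.26 and 0.09, *Elavl3* 0.10 and 0.04, *Elavl2* 0.20 and 0.19, and *Map2* 0.07 and 0.08. Both sets of values use the same Ctr libraries. The values of Ctr + 4-OHT depended on single libraries. With 1 library left out they ran from 0.17 (without Ctr + 4-OHT SMH_125) to 0.56 (without Ctr + 4-OHT SMH_129) for *Tubb3* and from 0.16 to 0.46 for *Dcx*, without the same libraries. The difference between the 2 is the comparison of *Smg6*-iKO with Ctr + 4-OHT given above, in which none of these genes passed. The standard error was larger in Ctr + 4-OHT for all 10 genes, at 0.26 for *Tubb3* against 0.12 in *Smg6*-iKO.

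**Figure D4:**
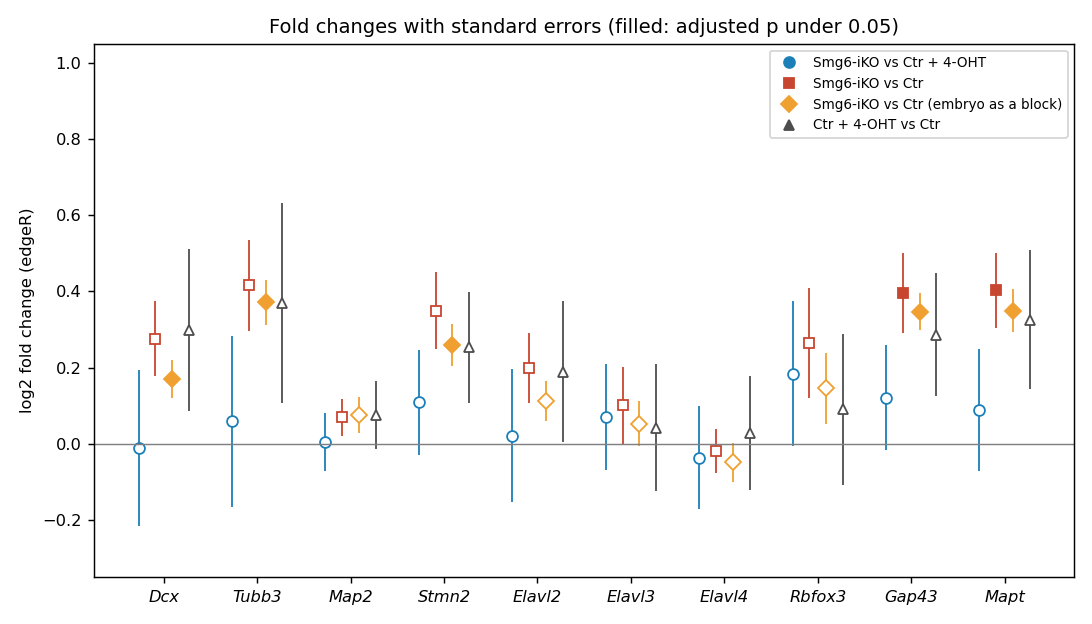
Log2 fold change of the 10 genes with its standard error (whiskers) from edgeR in the 3 comparisons and in the fit with the embryo as a block, filled where the adjusted p was under 0.05. *Gap43* and *Mapt* are filled for *Smg6*-iKO against Ctr, 5 genes are filled with the block, and no gene is filled for the comparisons that involve Ctr + 4-OHT.

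The Ctr + 4-OHT embryos differed from each other more than the embryos within each other group did. The SD of log2 CPM had a median over the 10 genes of 0.36 in Ctr + 4-OHT, 0.18 in Ctr and 0.16 in *Smg6*-iKO, while the median over all genes was 0.17, 0.12 and 0.13. *Tubb3* had the widest spread, 2.45-fold between Ctr + 4-OHT embryos SMH_125 and SMH_129, and 94.6% of genes had a smaller SD in that group. *Dcx* had 2.02-fold. *Map2* stood at the other end, with 1.24-fold over all 11 libraries and an SD in *Smg6*-iKO that was smaller than that of all but 1.40% of genes.

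The genes moved together across embryos. Relative to its own mean over the 11 libraries, each of the 10 genes was high in Ctr + 4-OHT embryos SMH_125 and SMH_131 and in *Smg6*-iKO embryo SMH_133, and each was low in Ctr + 4-OHT embryo SMH_129 and in Ctr embryo SMH_132. The median deviation was 0.35 in Ctr + 4-OHT SMH_125, 0.31 in *Smg6*-iKO SMH_127 and 0.23 in Ctr + 4-OHT SMH_131. At the low end it was -0.48 in Ctr + 4-OHT SMH_129 and -0.33 in Ctr SMH_132. The highest and the lowest library thus belonged to the same group. Over the 11 libraries Pearson's r was positive for 45 of 45 pairs of genes, between 0.54 and 0.99 with a median of 0.86 (Spearman's rho, median 0.82). Without Ctr + 4-OHT SMH_125 and SMH_129 the median r was 0.74, and after subtraction of group means it was 0.89 over all libraries. These correlations are descriptive, and the points share libraries.

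Progenitor genes ran the other way. The 10 progenitor markers summed to 5628.6 CPM in Ctr + 4-OHT SMH_125 and to 6879.7 CPM in Ctr + 4-OHT SMH_129, where the neuronal genes summed to 3777.2 and 2272.6 CPM. Across the 11 libraries 0 of 10 progenitor markers correlated positively with the mean of the neuronal genes (median r = -0.63). Of 14819 genes compared, 6995 did (median r = -0.05). Markers of the cortical excitatory lineage followed the neuronal genes in 7 of 8 cases (median r = 0.85), and summed to 493.99 CPM in Ctr + 4-OHT SMH_125 and 161.33 CPM in SMH_129. GABAergic markers summed to 116.34 and 92.003 CPM in these libraries (median r = 0.39). Oligodendrocyte lineage markers summed to 735.72 and 1029.3 CPM, with 0 of 5 positive. Both libraries expressed *Xist*, with 5 sex-linked genes summing to 735.35 and 891.15 CPM. Endothelial and mesenchymal markers, mostly *Col3a1*, summed to 225.2 to 1165.7 CPM in *Smg6*-iKO, highest in embryo SMH_127, to 239.96 to 671 CPM in Ctr + 4-OHT and to 289.48 to 412.45 CPM in Ctr. Of 5 such markers at 1 CPM or more, 4 correlated positively with the mean of the neuronal genes (median r = 0.63). The part of cell composition in the differences between groups was not tested.

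**Figure D5:**
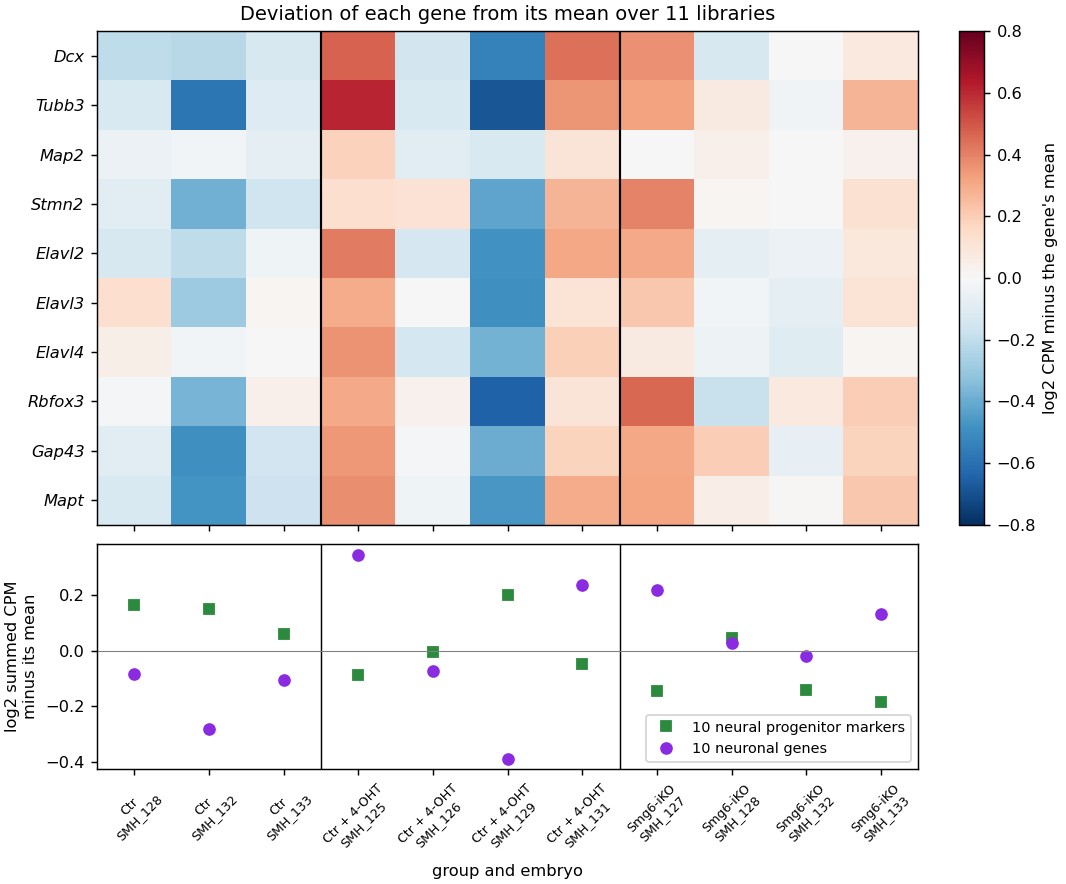
Top, log2 CPM of each gene minus its mean over 11 libraries, with red above and blue below the mean. Bottom, log2 of the CPM summed over the 10 neuronal genes (circles) and over 10 progenitor markers (squares), each minus its mean. Ctr + 4-OHT SMH_125 is highest and Ctr + 4-OHT SMH_129 lowest in the sum of the neuronal genes, and the progenitor markers are highest in Ctr + 4-OHT SMH_129.

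Progenitor markers also differed between groups. Against Ctr, 5 of 10 fell in *Smg6*-iKO and none rose (edgeR), where 4.98% of all genes fell. They were *Hes5*, *Prom1*, *Sox2*, *Pax6* and *Fabp7*, named here after their values were seen. *Hes5*, a target of Notch signalling that holds cells in the progenitor state, had 26.4, 38.2, 33.2 and 29.6 CPM in *Smg6*-iKO, 43.4, 52.3, 66.7 and 43.7 CPM in Ctr + 4-OHT, and 99.3, 70.4 and 62.6 CPM in Ctr. The *Smg6*-iKO libraries lay below all others, with a log2 fold change of -1.28 against Ctr (edgeR, adjusted p = 0.00186) and of -0.69 against Ctr + 4-OHT (edgeR, adjusted p = 0.0647). *Prom1*, *Sox2* and *Pax6*, which are stem cell genes, had log2 fold changes of -0.54, -0.47 and -0.45 against Ctr (edgeR, adjusted p = 0.00806, 0.0223 and 0.0166). *Fabp7*, which encodes a lipid-binding protein of radial glia, had -0.29 (edgeR, adjusted p = 0.0301). *Sox2* and *Pax6* lost the call without Ctr SMH_128, Ctr SMH_132 or *Smg6*-iKO SMH_133 (adjusted p between 0.0501 and 0.0911). *Fabp7* lost it without Ctr SMH_128, Ctr SMH_132 or *Smg6*-iKO SMH_127, SMH_132 or SMH_133 (adjusted p between 0.0627 and 0.103). With the embryo as a block 6 of 10 fell, where 11.2% of all genes did, and the edgeR adjusted p was 1.38e-05 for *Sox2*, 1.13e-05 for *Pax6* and 0.00191 for *Fabp7*. Against Ctr + 4-OHT none of the 10 passed in edgeR, 4 had an unadjusted p under 0.05 (16.7% of all genes), and DESeq2 called 1 (6.16% of all genes). Ctr + 4-OHT was lower than Ctr in 8 of the 10 by log2 fold change, with a median of -0.16, and none passed in edgeR, 3 had an unadjusted p under 0.05 (8.28% of all genes), and DESeq2 called 0. In that comparison the log2 fold change was -0.59 for *Hes5*, -0.28 for *Pax6*, -0.27 for *Prom1*, -0.25 for *Sox2* and -0.11 for *Fabp7*.

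Beyond the 10 genes, 3 of 19 other genes of the neuronal cytoskeleton rose against Ctr, where 4.27% of all genes rose, with 17 of 19 values positive and a median log2 fold change of 0.23. *Nefl* and *Ina*, which encode neurofilament subunits, had log2 fold changes of 0.55 and 0.45 (edgeR, adjusted p = 0.0431 and 0.0401), and *Map6*, which stabilizes microtubules, had 0.34 (edgeR, adjusted p = 0.0180). *Nefl* lost the call without any 1 Ctr library or *Smg6*-iKO SMH_127, SMH_128 or SMH_133 (adjusted p between 0.0516 and 0.153). *Ina* lost it without any 1 Ctr library or *Smg6*-iKO SMH_127, SMH_132 or SMH_133 (adjusted p between 0.0552 and 0.159), and *Map6* without Ctr SMH_128, Ctr SMH_132 or *Smg6*-iKO SMH_133 (adjusted p between 0.0612 and 0.0865). With the block, 9 of 19 rose, where 10.3% of all genes rose and 11.2% fell. The same background holds for the block counts of the lists that follow.

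Among 16 genes of the growth cone, adhesion and transport, only *Kif5a*, a neuronal kinesin motor, rose against Ctr in edgeR without the block, where 4.27% of all genes rose (log2 fold change 0.31, edgeR, adjusted p = 0.0479). It lost the call without any 1 Ctr library or *Smg6*-iKO SMH_127, SMH_132 or SMH_133 (adjusted p between 0.0509 and 0.182), and under DESeq2's size factors (0.0524). With the block 4 rose and 2 fell. Of 14 genes of synaptic vesicles and release, *Stx1a* and *Syt4* rose against Ctr, beside the same 4.27% of all genes. *Stx1a*, which encodes a membrane fusion protein of the synapse, had 36.5, 36.1, 34.6 and 37.4 CPM in *Smg6*-iKO, 31.6, 27.7, 22.2 and 31.6 CPM in Ctr + 4-OHT, and 26.3, 20.7 and 26.4 CPM in Ctr. Its *Smg6*-iKO libraries lay above all others, with a log2 fold change of 0.57 against Ctr (edgeR, adjusted p = 0.00452) and 0.37 against Ctr + 4-OHT (edgeR, adjusted p = 0.115). *Syt4*, a synaptotagmin gene, had 0.39 against Ctr (edgeR, adjusted p = 0.0317). *Syt4* lost the call without Ctr SMH_132, Ctr SMH_133 or *Smg6*-iKO SMH_127 or SMH_133 (adjusted p between 0.0537 and 0.135). With the block 5 of 14 rose.

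Transcription factors that drive neurogenesis had values on both sides of 0. Of 18 proneural and neuronal transcription factors, 0 passed against Ctr in edgeR (3 at an unadjusted p under 0.05, where 26.9% of all genes were, and 2 by DESeq2, which called 16.2%), with 9 positive, 9 negative and a median log2 fold change of 0.02. With the block 2 rose and 3 fell, together 27.8% of the list, where 21.4% of all genes passed. Of 8 further RNA-binding genes related to *Elavl* and *Rbfox3*, 0 passed (4 at an unadjusted p under 0.05 and 3 by DESeq2, beside the same 26.9% and 16.2%), with a median of 0.24, and with the block 4 rose. Against Ctr + 4-OHT none of the genes in these 5 lists passed in edgeR, 6 had an unadjusted p under 0.05 (16.7% of all genes), and DESeq2 called 1 gene of the growth cone list and *Stx1a* (6.16% of all genes). Between Ctr + 4-OHT and Ctr none passed in edgeR or DESeq2, and 2 had an unadjusted p under 0.05 (8.28% of all genes).

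Of 14819 genes with a mean of at least 1 CPM, the 10 whose log2 CPM followed the mean of the neuronal genes most closely over the 11 libraries had r between 0.98 and 0.99. *Kif5c*, a neuronal kinesin motor gene, was first, with 349.54 to 724.71 CPM. Others among them were *Dnajc6* (auxilin), *Fam131b*, *Rbfox2* (a splicing regulator related to NeuN), *Zc2hc1a*, *Slc17a7* (the vesicular glutamate transporter VGLUT1), *Sult4a1*, *Rab11fip4* and *Coro1a*. The list gives likeness across the same 11 libraries only.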

How the data were processed

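Total RNA was depleted of ribosomal RNA and sequenced from 11 libraries of 8 embryos, grouped by the sample labels. The authors mapped reads to GRCm38 with STAR 2.5.4b and deposited raw counts per Ensembl gene from featureCounts 1.5.0, which kept uniquely mapped reads on the sense strand. These counts were used as deposited. The study's embryos are the replicates, so p-values of fits without the embryo as a block measure the spread between embryos. For *Smg6*-iKO against Ctr, such a fit ignores that 3 embryos gave libraries to both groups. With the block, p-values measure the spread of the differences within embryos. Depth was 26418249 to 33756875 counted reads per library, and no 2 libraries of a group were duplicates (chi-square per gene 11.04 to 43.02).

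Of 53801 genes, 53620 were paired with a symbol. For each of the 3 comparisons, edgeR 4.0.16 (R 4.3.3) was run on the libraries of the 2 groups concerned. Genes were filtered by filterByExpr and scaled by TMM, and quasi-likelihood p-values were adjusted by Benjamini-Hochberg over all genes tested, at a threshold of 0.05. Standard errors are the log2 fold change over the square root of F. CPM were normalized by TMM over all libraries, in which 18123 genes were kept. Correlations used log2 CPM with a prior count of 2. Embryo numbers in the labels gave the pairing of Ctr and *Smg6*-iKO. Deviations from group means correlated at 0.328 to 0.4253 within the 3 embryos and at -0.128 on average between different embryos. Because group means were subtracted, positive values within embryos push those between embryos below 0, so the latter are not separate evidence. On simulated data with 200 genes changed by 1 on the log2 scale, edgeR recovered 94% for *Smg6*-iKO against Ctr + 4-OHT, 91% against Ctr, 92% with the block and 87% for Ctr + 4-OHT against Ctr. Of the unchanged genes it called 0.0642%, 0.0458%, 0.212% and 0.0696%, in the same order. The simulation without the block gave libraries of 1 embryo no shared effect, and that with the block added an assumed embryo effect. These rates therefore hold for the simulated settings only. Smaller changes were not simulated.

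The 10 genes and all gene and marker lists were chosen with earlier results of these data known, so no list is independent evidence. Named were the 10 genes, *Smg6*, in each context list up to 4 genes that passed in a comparison of *Smg6*-iKO, and the 10 genes most like the mean of the 10, of which 1 is not reported here. Further markers were named after their values were seen (*Hes5*, *Prom1*, *Sox2*, *Pax6*, *Fabp7*, *Dlx1* and *Gfap*). Alternatives were DESeq2's size factors, no filter on low counts, all 11 libraries in one fit, the Wald test of DESeq2 1.42.0, a correction for gene length (loess span 0.3), the embryo as a block and each library left out. The block with both libraries of 1 embryo left out was added after the data were seen. Upstream sequences are from RefSeq. Figures were drawn with Python 3.11.15 and matplotlib 3.10.9.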

Additional observations from a re-analysis of the deposited data

Results flagged for a closer look

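In 44 groups of 4 libraries, 1 library stood apart from the other 3 in 2 cases, and by chance about 1 group in 20 would show such a gap. *Map6* was low in Ctr + 4-OHT embryo SMH_129 (69.8 CPM), with a gap to the nearest library that was 0.88 of the range of the group. Within that group, the 10 neuronal genes were lowest in the same library. *Prom1*, a progenitor marker, was high in *Smg6*-iKO embryo SMH_128 (65.9 CPM), with a gap of 0.881 of the range. Neither gene is among the 10 neuronal genes, of which none had a library that stood apart by this measure.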

How the results depend on the processing

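None of the 10 neuronal genes passed against Ctr + 4-OHT, or between Ctr + 4-OHT and Ctr, under any alternative run. No block could be fitted in those 2 comparisons, whose groups share no embryo. Against Ctr, 6 of the 10 passed with no filter on low counts, 5 in DESeq2's Wald test and 0 with all 11 libraries in one fit. There were 5 with the embryo as a block, 5 with the block and the length correction, and 0 to 4 with 1 library left out. Over all genes, 16.2% passed in DESeq2's Wald test and 21.4% with the embryo as a block. For the other settings only the counts over all genes are given, in the next paragraph. With both libraries of embryo SMH_128, SMH_132 or SMH_133 left out of the block fit the counts were 8, 4 and 4. Of all genes, 28.1%, 14.6% and 9.62% passed in these fits. In that fit without SMH_132, *Elavl3* (-0.031) and *Rbfox3* (-0.00095) turned negative. With all 3 embryos, the block turned no direction among the 10, added the calls of *Dcx*, *Tubb3* and *Stmn2* and, of the other genes named in the comparison, that of *Smg6*.

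Over all genes, 206 passed in *Smg6*-iKO against Ctr + 4-OHT, 418 with no filter, 484 in one fit, 880 in DESeq2 and 66 to 174 with 1 library left out. Against Ctr, 1663 passed, 2714 with no filter, 796 in one fit, 2407 in DESeq2, 3854 with the block, 3714 with block and length correction, 5164, 2644 and 1742 with the block without SMH_128, SMH_132 and SMH_133, and 570 to 2524 with 1 library left out. Between Ctr + 4-OHT and Ctr, 39 passed, 198 with no filter, 60 in one fit, 168 in DESeq2 and 5 to 54 with 1 library left out.

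The sign of small log2 fold changes that did not pass depended on single libraries. Against Ctr + 4-OHT, the values with 1 library left out were -0.18 to 0.12 for *Dcx*, -0.14 to 0.26 for *Tubb3*, -0.046 to 0.055 for *Map2*, -0.024 to 0.19 for *Stmn2*, -0.13 to 0.15 for *Elavl2*, -0.068 to 0.17 for *Elavl3*, -0.16 to 0.081 for *Elavl4*, -0.0072 to 0.22 for *Gap43*, -0.060 to 0.19 for *Mapt* and 0.016 to 0.30 for *Rbfox3*, which kept its sign. Those of *Ina* were -0.059 to 0.23, of *Map6* -0.00010 to 0.15, of *Kif5a* -0.020 to 0.25 and of *Syt4* -0.37 to 0.074. Against Ctr they were -0.024 to 0.20 for *Elavl3* and -0.049 to 0.0083 for *Elavl4*, and between Ctr + 4-OHT and Ctr -0.071 to 0.18 for *Elavl3*, -0.091 to 0.14 for *Elavl4*, -0.028 to 0.26 for *Rbfox3* and, with no change of sign, 0.060 to 0.34 for *Elavl2*, 0.024 to 0.12 for *Map2*, 0.17 to 0.38 for *Stmn2*, 0.17 to 0.41 for *Gap43* and 0.22 to 0.47 for *Mapt*. *Map2* was also negative with DESeq2's size factors (-0.0023), in one fit (-0.0061), in DESeq2 (-0.0095) and with the length correction (-0.038), as was *Elavl2* with the last (-0.00083). The cause of these changes was not tested. Every count of the 10 genes was 365 reads or more. The simulated data tested changes of 1 on the log2 scale, larger than any reported for the 10 genes, so how many smaller changes the fits miss was not measured.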

Other observations

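Markers of other neural lineages were counted beside the 10 neuronal genes. Of 6 genes of the GABAergic lineage, all 6 had positive log2 fold changes in *Smg6*-iKO against both controls, with a median of 0.33 against Ctr and 0.40 against Ctr + 4-OHT. Against Ctr, *Dlx1*, a transcription factor gene of interneuron progenitors, rose by 0.44 on the log2 scale (edgeR, adjusted p = 0.0417), and the other 5 did not pass, where 4.27% of all genes rose. *Dlx1* lost the call without Ctr SMH_128, Ctr SMH_132 or *Smg6*-iKO SMH_127, SMH_132 or SMH_133 (edgeR, adjusted p between 0.0724 and 0.161) and with all 11 libraries in one fit (0.0890). With the embryo as a block 3 of 6 passed, where 21.4% of all genes did. Against Ctr + 4-OHT none passed in edgeR, 5 of 6 had an unadjusted p under 0.05, where 16.7% of all genes did, and DESeq2 called 0, where it called 6.16%. Between Ctr + 4-OHT and Ctr the median of the 6 was -0.08, and 0 passed in edgeR, at an unadjusted p under 0.05 or in DESeq2. Over all genes 0.221%, 8.28% and 1.03% did, in the same order. *Dlx1* was named after its value was seen.

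Cortical excitatory lineage markers had a median log2 fold change of 0.12 against Ctr and -0.13 against Ctr + 4-OHT, and 0 of 8 passed in edgeR without the block in either comparison. At an unadjusted p under 0.05 there were 2 against Ctr and 0 against Ctr + 4-OHT, and DESeq2 called 2 and 0. Over all genes these shares were 26.9% and 16.7% at the unadjusted p and 16.2% and 6.16% by DESeq2. With the block against Ctr, 1 rose and 1 fell. Over all genes 10.3% rose and 11.2% fell with the block, and this background holds for the block counts below. Of 5 astrocyte markers, 3 had positive and 2 negative log2 fold changes against Ctr, with a median of 0.11, and with the block 2 rose and 1 fell. Without the block only *Gfap* passed among the 5, where 9.25% of all genes did. *Gfap* rose against Ctr by 1.33 on the log2 scale (edgeR, adjusted p = 0.0288), and it was also named after its value was seen. It lost the call without Ctr SMH_132, Ctr SMH_133 or *Smg6*-iKO SMH_127 (edgeR, adjusted p between 0.0585 and 0.112) and with all 11 libraries in one fit (0.284). Its level was 25.7 to 63.6 CPM in *Smg6*-iKO and 10.6 to 26.2 CPM in Ctr, so the groups just overlapped, and it ran from 5.14 to 78.2 CPM in Ctr + 4-OHT. Of 5 oligodendrocyte lineage markers, 6 tested endothelial and mesenchymal markers and 5 sex-linked genes, none passed against Ctr in edgeR without the block, and DESeq2 called 0. With the block, 2 oligodendrocyte lineage markers rose, 1 endothelial or mesenchymal marker rose and 1 fell, and 0 sex-linked genes passed. Without the block, 1 endothelial or mesenchymal marker had an unadjusted p under 0.05, where 26.9% of all genes did. Against Ctr + 4-OHT, all 6 endothelial and mesenchymal markers tested had positive log2 fold changes, with a median of 0.41. Of these, 0 passed in edgeR, 1 had an unadjusted p under 0.05 (16.7% of all genes), and DESeq2 called 0 (6.16% of all genes).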
